A study of Arabidopsis thaliana with 12 samples.

Results

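Levels of 2 Arabidopsis thaliana transcripts of protein turnover, AT4G39760 and TPP2 (AT4G20850), were followed in plants grown in light specific for photosystem II, with and without DCMU. Each gene has 1 probe whose platform annotation names it alone, probe 2446 for AT4G39760 and probe 3245 for TPP2, and no probe names either among several genes. These are 2 of 3278 measured features, of which 651 carry a single gene name. Both genes were chosen by their higher level with DCMU in these same arrays, so that difference is described below and carries no test. The RefSeq gene table (TAIR10.1) places both on chromosome 4, TPP2 at 11160721 to 11170071 and AT4G39760 at 18443679 to 18444788. Probe positions were not used here, so the part of each gene that a probe reports is unknown.

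All plants were wild type of ecotype C24, and total RNA was hybridised. The untreated group (6 samples) grew in the photosystem II light, and the DCMU group (6 samples) grew in the same light and received DCMU (diuron), a herbicide that blocks the transfer of electrons from photosystem II to plastoquinone. The labels give neither dose, duration, plant age nor tissue. They number the samples 1 to 6 in each group.

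AT4G39760 is an F-box kelch-repeat protein. F-box proteins are the exchangeable subunits of SCF ubiquitin ligases, in which the F-box holds the complex and a second domain, here the kelch repeats, can bind the protein to be marked with ubiquitin for breakdown by the proteasome. TPP2 is tripeptidyl peptidase II, a large serine peptidase of the subtilisin type that removes tripeptides from the free amino end of peptides, and in mammals it is known to act downstream of the proteasome. An F-box protein thus acts where a protein is picked for breakdown, and TPP2 on the peptides that breakdown leaves.

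Levels are spot intensities in the authors' scaled units, on a linear scale. Array totals ran from 3643 to 3768, the median spot from 0.596 to 0.687 and the share of probes listed at 0 from 3.93% to 4.22%. Deviations from the group mean run together between numbers 1 and 2, 3 and 4, and 5 and 6, so each pair was averaged and counted as 1 replicate, giving n = 3 per group. Nothing in the labels says that the replicates came from separate plantings, so their spread may be technical. Of 8 root markers none was measured, and of 10 green tissue markers 3 were. LHB1B2 (LHCB1.5), of the light-harvesting antenna, fell by 1.15 on the log2 scale with DCMU (limma, adjusted p = 0.000912), while the Calvin cycle enzymes PRK and SBPASE had log2 changes of 0.46 and 0.40 (limma, adjusted p = 0.121 and 0.111, and 0.0326 and 0.0279 with the number pair as a block). The part of such shifts in the levels below was not tested. Total RNA does not tell fewer cells of a type from less transcript per cell.

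Without DCMU, AT4G39760 stood at 1.88 and 2.05 in samples 1 and 2, at 2.80 and 2.58 in samples 3 and 4, and at 2.10 and 2.13 in samples 5 and 6. With DCMU it stood at 4.30 and 4.23, at 3.78 and 3.72, and at 4.28 and 4.18 in the same order. The lowest treated array lay above the highest untreated one, so the groups did not overlap on any of the 12 arrays. Samples 3 and 4 were the highest of the untreated group and the lowest of the treated group. Averaged over replicates, the untreated level was 2.26 ± 0.383 and the treated level 4.08 ± 0.288 (SD, n = 3). The difference of the mean log2 levels was 0.87 (limma's SE 0.13), which is 1.82-fold. Every SE here is limma's moderated one, which draws the spread of each gene toward that of all features. AT4G39760 and TPP2 both varied more than the median feature, so their SEs are smaller than their own replicates alone would give.

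TPP2 without DCMU stood at 0.259 and 0.249 in samples 1 and 2, at 0.273 and 0.293 in samples 3 and 4, and at 0.222 and 0.256 in samples 5 and 6. With DCMU it stood at 0.333 and 0.329, at 0.458 and 0.472, and at 0.450 and 0.468. Here too every treated array lay above every untreated one, but samples 1 and 2 of the treated group stood apart from the other 4 treated arrays, which lay between 0.450 and 0.472. Averaged over replicates, the untreated level was 0.258 ± 0.0225 and the treated level 0.418 ± 0.0756 (SD, n = 3). The difference of the mean log2 levels was 0.68 (limma's SE 0.15), which is 1.60-fold.

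**Figure D1:**
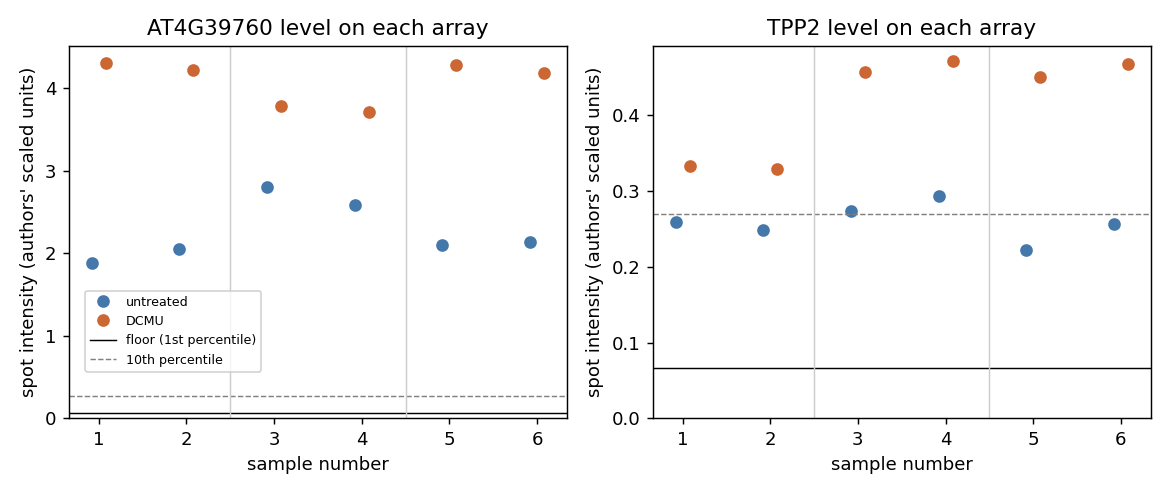
Spot intensity of AT4G39760 (left) and TPP2 (right) on each of the 12 arrays, by sample number, in the authors' scaled units on linear axes that start at 0; grey vertical lines part the number pairs, the black line is the floor of 0.0669 and the dashed line the 10th percentile of positive values, 0.270. All treated arrays lie above all untreated ones for both genes, and TPP2 lies near the dashed line without DCMU.

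The separation of the arrays is a property many features had. All 6 treated arrays stood above all 6 untreated ones in 9.82% of the 3278 features, all 3 treated replicates above all 3 untreated ones in 21.9%, and all 3 number pairs were higher with DCMU in 40.1%. Both genes meet all 3 conditions, as follows in part from how they were chosen. The median feature was itself 0.10 higher with DCMU on the log2 scale, and relative to it AT4G39760 was 0.77 and TPP2 0.58 higher. Among the 651 named features AT4G39760 had the largest rise and TPP2 the fifth largest, while over all 3278 features 10 and 31 had a larger one.

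The genes differed in which number pair carried the difference. For AT4G39760 the ratio of treated to untreated level was 2.17-fold in numbers 1-2, 1.39-fold in numbers 3-4 and 2.001-fold in numbers 5-6. The smaller ratio in numbers 3-4 had a part on each side, an untreated mean of 2.69 against 1.96 and 2.11, and a treated mean of 3.75 against 4.27 and 4.23. For TPP2 the ratio was 1.30-fold in numbers 1-2, 1.64-fold in numbers 3-4 and 1.92-fold in numbers 5-6. Its small ratio in numbers 1-2 lay on the treated side, 0.331 against 0.464 and 0.459, while the untreated means of 0.254, 0.283 and 0.239 were closer together.

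On the log2 scale the 3 changes of AT4G39760 were 1.12, 0.48 and 1.001 (SD 0.34), and those of TPP2 were 0.38, 0.71 and 0.94 (SD 0.28). Taken number by number, the 6 differences ran from 0.43 to 1.19 for AT4G39760 and from 0.37 to 1.02 for TPP2. That all were above 0 follows in part from how the genes were chosen, and the 2 numbers of a pair are not independent. The 2 arrays of a pair in 1 group lay 0.03 to 0.12 apart for AT4G39760 and 0.02 to 0.20 apart for TPP2. These gaps may be technical and are no measure of the spread between replicates. In numbers 1-2 the change of TPP2 was exceeded by 11.0% of all features and that of AT4G39760 by 0.122%. In numbers 3-4 the order was the other way, with 0.580% of features above TPP2 and 2.14% above AT4G39760, and in numbers 5-6 the shares were 0.976% and 0.854%. The median feature changed by 0.10, 0.03 and 0.13 in the 3 pairs, which was less than the change of either gene in each of them.

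**Figure D2:**
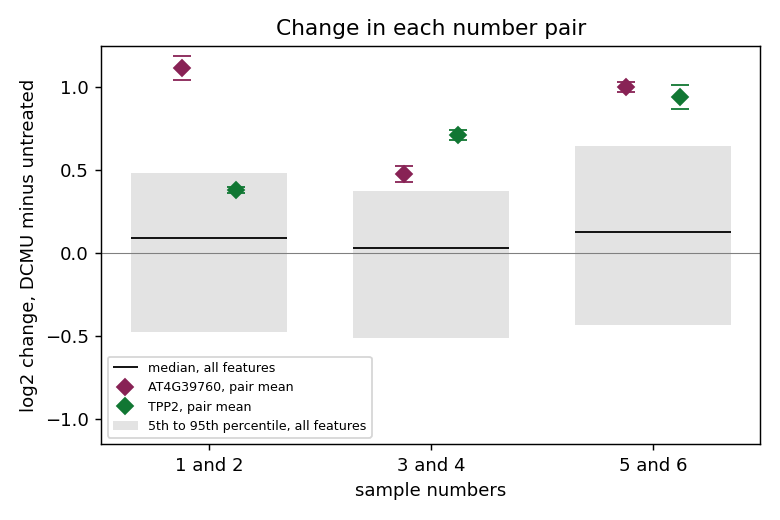
Log2 change (DCMU minus untreated) in each number pair; diamonds are pair means, dashes the 2 numbers of the pair, grey bars the 5th to 95th percentile of all 3278 features and black lines their median. TPP2 lies inside the grey bar in numbers 1-2 (0.38, with a bar up to 0.48), and AT4G39760 has its smallest change, 0.48, in numbers 3-4.

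The 2 probes lie in different parts of the intensity range, which says how far each stood from the floor and nothing of which transcript is more abundant. AT4G39760 was 28.2 to 41.9 times the floor of 0.0669 without DCMU and 55.5 to 64.3 times with it. The floor is the 1st percentile of positive values, under which intensities were not told apart. TPP2 was 3.33 to 4.38 times the floor without and 4.91 to 7.05 times with DCMU, so no array of either gene was at it. Between 92.9% and 97.6% of the probes of an array were dimmer than AT4G39760, against 11.6% to 31.5% for TPP2. In 4 of the 6 untreated arrays TPP2 was under 0.270, the 10th percentile of positive values, and in no treated array. With the floor raised to that value its log2 change became 0.59, since the untreated values are then lifted, and that of AT4G39760 remained 0.87. No background intensity was used here, so how much of the dim TPP2 signal is background, and how far that compresses its ratio, was not tested.

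Replicates of both genes varied somewhat more than those of most features. The pooled SD of the replicates within a group was 0.18 on the log2 scale for AT4G39760 and 0.22 for TPP2, against a median of 0.14 over all features. A smaller SD was found in 70.2% of features for AT4G39760 and in 80.9% for TPP2. For AT4G39760 the spread was wider without DCMU (log2 SD 0.24 against 0.10, n = 3), and for TPP2 it was wider with DCMU (0.28 against 0.12). With 3 replicates per group these SDs are themselves imprecise, and their difference was not tested.

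**Figure D3:**
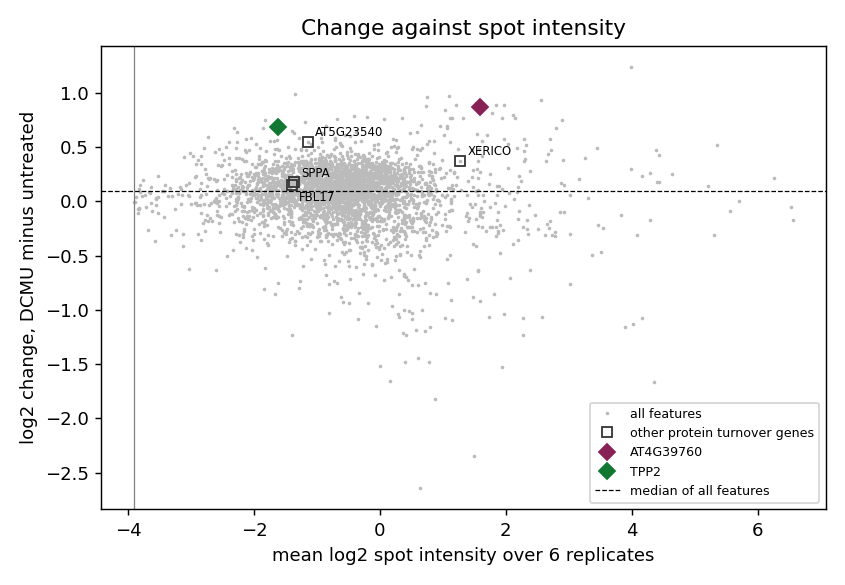
Log2 change (DCMU minus untreated) against mean log2 spot intensity for 3278 features (grey), with AT4G39760 and TPP2 as diamonds and 4 other protein turnover genes as squares; the dashed line is the median of all features and the vertical line the floor. AT4G39760 lies among bright and TPP2 among dim features, and AT5G23540 lies at a log2 change of 0.55.

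Within the groups the levels of the 2 transcripts showed little likeness. Over the 12 arrays, with each group's mean taken off, the log2 levels of AT4G39760 and TPP2 had a Pearson correlation of 0.0705, and 387 of the other named genes were more like AT4G39760 than TPP2 was. The 12 arrays share number pairs, so they are not 12 independent points, and the value is a description. By the same measure the named genes most like AT4G39760 were NdhS (r = 0.863), a subunit of the chloroplast NADH dehydrogenase-like complex, AT1G35510 (0.806), AT1G50880 (0.804), AT3G23940 (0.781) and AT4G29890 (0.776). Those most like TPP2 were AT4G20300 (r = 0.880), the Calvin cycle enzyme SBPASE (0.849), AT5G38310 (0.830), AT4G31530 (0.816) and AT4G23110 (0.812). A correlation above 0.5 was common: 17.2% of named genes had one with AT4G39760 and 11.4% with TPP2. Of these 10 genes 1, AT1G50880, passed limma's test between the groups (log2 change 0.58, adjusted p = 0.0300), a test that 5.09% of all 3278 features passed. With the number pair as a block 3 of the 10 passed, where 17.3% of all features did: AT1G50880 (limma, adjusted p = 0.00452), AT4G29890 (0.00686) and SBPASE (0.0279).

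Other genes of protein breakdown were looked up by locus and by words in their symbols and synonyms. The gene table used here gives no product names, so turnover genes known by a locus tag alone can be among the measured features without being counted. Of the 4 genes found in this way none passed the test. The test was limma's moderated test without a block (two-sided, Benjamini-Hochberg adjustment over 3278 features), which called 5.09% of all features in either direction and 1.92% as higher with DCMU. Of a ubiquitin-proteasome list of 53 loci 1 was measured. That gene, AT5G23540, had been entered by its locus as RPN11, the lid subunit that removes ubiquitin chains as a substrate enters the proteasome. It stood at 0.314, 0.454 and 0.371 without DCMU and at 0.522, 0.619 and 0.511 with it (numbers 1-2, 3-4 and 5-6), so the groups did not overlap, as in the 21.9% of features with all treated replicates above all untreated ones. The log2 change was 0.55 (SE 0.15, limma's adjusted p = 0.0596). AT5G23540 was higher with DCMU in all 3 number pairs, as were 40.1% of all features. With the number pair as a block, a fit that called 17.3% of all features, limma gave it adjusted p = 0.00295, and adjusted p = 0.0109 with the block after median centring. It passed in 5 of 16 alternatives, 1 of them without the untreated numbers 3-4, and limma's adjusted p over the 16 ran from 0.00173 to 0.204. The lowest came from taking all 12 samples as replicates. That fit counts the correlated arrays of a pair as independent, and it called 1089 features.

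Of 11 peptidase loci and the genes found by name, 1 besides TPP2 was measured. SPPA, a chloroplast serine protease named as a signal peptide peptidase, stood at 0.341, 0.387 and 0.372 without and at 0.403, 0.396 and 0.443 with DCMU. The log2 change was 0.18 (SE 0.11; limma, adjusted p = 0.321), close to the 0.10 of the median feature. The list of SCF subunits and known F-box genes (21 loci) had no measured member. F-box genes outside that list can be among the measured features under a locus tag alone. Measured relatives of AT4G39760 were therefore not compared with it. FBL17, an F-box protein of the cell cycle, and XERICO, a small RING-H2 protein of the ubiquitin ligase type linked to abscisic acid, were added by name after the files were opened. FBL17 had a log2 change of 0.15 (SE 0.11; limma, adjusted p = 0.398). XERICO stood at 2.0, 2.52 and 1.92 without and at 2.53, 2.77 and 3.01 with DCMU, a log2 change of 0.37 (SE 0.13; limma, adjusted p = 0.125). It was higher with DCMU in all 3 number pairs, as were 40.1% of all features. With the block, a fit that called 17.3% of all features, XERICO had limma's adjusted p = 0.0366, and adjusted p = 0.0670 with the block after median centring. Over 16 alternatives limma's adjusted p for XERICO ran from 0.00661 to 0.328. The lowest again came from taking all 12 samples as replicates. The 4 genes are too few, and too dependent on which genes have a symbol, to speak for protein turnover genes in general.

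The nearest measured named genes on chromosome 4 did not pass the test either. Only 5.09% of all 3278 features passed it, so the lack of a call in so few genes says little. AT4G39690, which starts 26.1 kb before AT4G39760 with 10 genes between them, had a log2 change of 0.06 (SE 0.13; limma, adjusted p = 0.800), and AT4G40080, on the other side with 52 genes between, one of 0.15 (SE 0.10; adjusted p = 0.377). AT4G20820, which starts 10.7 kb before TPP2 with 3 genes between, had a log2 change of -0.03 (SE 0.12; limma, adjusted p = 0.883). AT4G21170, with 41 genes between it and TPP2, had one of 0.32 (SE 0.11, limma's adjusted p = 0.121). With the block, a fit that called 17.3% of all features, limma gave it adjusted p = 0.0397, but 0.104 with the block after median centring.

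**Figure D4:**
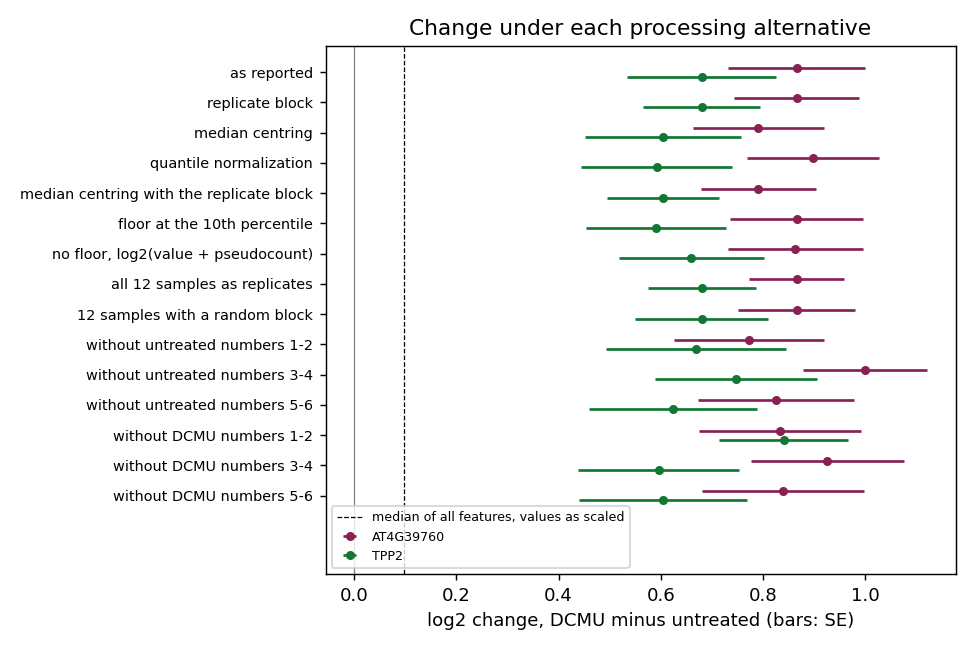
Log2 change of AT4G39760 and TPP2 (DCMU minus untreated, bars limma's moderated SE) as reported and under 14 alternatives, with a line at 0 and a dashed line at the median of all features. AT4G39760 lies between 0.77 and 1.0 and TPP2 between 0.59 and 0.84 in all of them.

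Under the 14 alternatives that give a change, AT4G39760 remained between 0.77 and 1.0 on the log2 scale and TPP2 between 0.59 and 0.84. Both extremes of AT4G39760 and the highest value of TPP2 came from leaving out 1 replicate. Without the untreated numbers 3-4 the change of AT4G39760 was 1.0, and without the untreated numbers 1-2 it was 0.77. TPP2 reached 0.84 without the DCMU numbers 1-2, which put it level with AT4G39760 at 0.83 in that fit. In the other 13 alternatives AT4G39760 had the larger change. The difference between the 2 changes was not tested, since both come from the comparison that chose the genes.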

How the data were processed

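Spot intensity was measured on arrays from total RNA of 12 samples in 2 groups of 6. The deposited table holds 1 intensity per probe and sample, scaled by the authors on a linear scale, as the values show (similar totals). Whether a ceiling compressed the ratios of bright spots was not tested. How arrays were labelled, scanned, background-corrected and scaled is not given in the sources used here. Precision is limited by the number of arrays. Of 3439 probes, 692 name 1 gene, 870 several and the rest none; 690 of the 692 were found in the RefSeq TAIR10.1 gene table.

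A floor of 0.0669, the 1st percentile of positive values, was applied, log2 was taken, 160 probes at or under it on every array were left out and probes of 1 gene were averaged. Within a group, deviations of paired numbers from the mean correlated at 0.36 to 0.67 and those of other numbers at -0.58 to -0.11, in part negative by construction, so pairs were averaged. Across groups, replicates of the same numbers correlated at 0.38 to 0.45 and others at -0.38 to 0.01, so a fit with the pair as a block was run beside the main one without it. The comparison used lmFit and eBayes of limma 3.58.1 (R 4.3.3) at a Benjamini-Hochberg threshold of 0.05, a procedure first tested on simulated data. It called 167 features, and 804 had an unadjusted p under 0.05. Alternatives were the block, median centring, quantile normalization, other floors, no filter, all 12 samples as replicates, a random block, an intensity trend and leaving out each replicate.

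The members and lists were chosen with earlier results of these data known. Genes named besides the members are, by rule, measured list members, the 5 most alike within groups (Pearson, 12 arrays) and the nearest measured neighbours.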

Additional observations from a re-analysis of the deposited data

How the results depend on the processing

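The changes of AT4G39760 and TPP2 moved by less than 1 SD between replicates in each of the 14 alternatives run for them; both genes were chosen for a positive change, so its sign is no sign of stability. Leaving out 1 replicate gave 0.77 to 1.0 for AT4G39760 and 0.596 to 0.840 for TPP2, and the other 8 settings gave 0.79 to 0.90 and 0.59 to 0.68. The replicate block, the random block and taking all 12 samples singly cannot move a mean difference in this balanced design, and change its SE alone. The count of called features was 167 as reported, 566 with the replicate block, 501 with that block on median-centred arrays, 102 without the filter on dim features, 302 with the random block, 1089 with all 12 samples as replicates and 77 to 282 without 1 replicate. Of the ubiquitin-proteasome list 0 of 1 members passed as reported and 1 with the replicate block, also once arrays were median-centred, with all 12 samples, with the random block and without untreated numbers 3-4 (0 to 1 over the fits without 1 replicate); without the block, 804 features had an unadjusted p under 0.05. SPPA passed in none of 16 alternatives. The list of SCF and F-box genes had no measured member and gives no value. The cause of these moves was not tested. TPP2 is limited by its low intensity, since no background was used here.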
